A study of Mus musculus with 9 samples.

Results

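Genes that mark 2 kinds of lung capillary endothelial cell and the lymphatic endothelium were followed through lungs exposed to silica, with and without atractylenolide III. The 10 genes were taken by name, as marker genes, from a deposited table of 55359 genes. Car4, Ednrb and Apln mark aerocytes, Gpihbp1, Aplnr and Plvap mark general capillary cells, and Lyve1, Prox1, Flt4 and Mmrn1 mark lymphatic endothelium. All 10 were found in the table once each.

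The lung's gas-exchange capillaries are a mosaic of large aerocytes, which lie against the alveolar epithelium where gas passes, and smaller general capillary cells, which renew the bed and regulate vessel tone. In mouse lung the apelin ligand comes from aerocytes and its receptor sits on general capillary cells, so that the pair joins both kinds of cell. Lymphatic vessels run along airways, veins and septa, drain fluid and carry immune cells and dust to lymph nodes, and are specified by the transcription factor Prox1 and maintained by signalling through the receptor Flt4.

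The animals were male C57BL/6J mice aged 6 to 8 weeks, and lung tissue was taken 28 days after an instillation into the trachea. Silica + ATL-III mice received 5 mg of silica in saline and intraperitoneal atractylenolide III, a plant sesquiterpene lactone, at 30 mg/kg per day. Silica mice received 5 mg of silica in saline, and Control mice received saline alone; the labels name no intraperitoneal vehicle for these 2 groups. Each group had 20 mice per the design text, and 3 libraries per group were deposited, 9 in all. Whether the 3 libraries of a group come from 3 mice is not stated, so the tests speak of the spread among libraries, which may be technical.

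Libraries held 16047175 to 17792481 counted reads. Values are FPKM (reads counted on a gene, divided by its exon length and by the size of the library) as deposited, in the order of libraries 1, 2 and 3, and tests are edgeR quasi-likelihood tests on the read counts, adjusted by the Benjamini-Hochberg method over 15459 tested genes and called at an adjusted p under 0.05. Fold changes are edgeR's estimates on counts scaled by TMM (trimmed mean of M values), so they can differ from the ratio of 2 FPKM means. Surfactant and other alveolar type 2 genes, which mark lung epithelium, summed to 23600 to 31027 FPKM in Silica + ATL-III, 28591 to 34364 FPKM in Silica and 22225 to 30593 FPKM in Control libraries. Summed FPKM of 10 neutrophil genes was 29764 to 45219 in Silica + ATL-III, 731 to 4499 in Silica and 555 to 3875 in Control libraries. Increases made up 53.8% of all calls in Silica against Control, 52.6% in Silica + ATL-III against Silica and 57.6% in Silica + ATL-III against Control. Scaling by library totals alone gave 33.0%, 46.0% and 34.6% in the same order and shifted the median log2 fold change of all genes by -0.10, -0.02 and -0.12. The 6 B cell genes summed to 7.15 to 19.4 FPKM in Silica + ATL-III, 35.96 to 61.9 FPKM in Silica and 27.4 to 64.1 FPKM in Control libraries, and 6 of 6 were lower in Silica + ATL-III than in Silica and than in Control (3 without Control library 2 or 3, and 4 against either group without Silica + ATL-III library 1). The 8 fibroblast genes summed to 125 to 171 FPKM in Silica + ATL-III, 210 to 261 FPKM in Silica and 233 to 279 FPKM in Control libraries, and 5 of 8 were lower in Silica + ATL-III in either comparison. The part of neutrophils, B cells and fibroblasts in these results was not tested. In whole lung, fewer cells of a type and less RNA per cell cannot be told apart.

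Ednrb and Aplnr were lower in Silica than in Control lungs, and none of the 10 genes was called higher there. Silica with atractylenolide III, set against silica alone, raised Lyve1 and Gpihbp1 and lowered Apln and Aplnr. Against Control, the same treatment raised Lyve1 and Gpihbp1 and lowered Ednrb, Apln and Aplnr. Each of the 3 marker sets held, for Silica + ATL-III against Silica, a gene that changed and a gene that passed no test.

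For Silica against Control, 2 of 9 tested genes were called, 0 higher and 2 lower, where 16.9% of all tested genes were called (9.11% higher and 7.81% lower). Leaving out 1 library gave 0 to 1 calls, with 0 without Control library 1, Control library 3 or Silica library 1 and 1 without Control library 2, Silica library 2 or Silica library 3. For Silica + ATL-III against Silica, 4 of 9 genes were called, 2 higher and 2 lower, where 21.2% of all tested genes were called (11.2% higher and 10% lower). For Silica + ATL-III against Control, 5 of 9 genes were called, 2 higher and 3 lower, where 15.9% of all tested genes were called (9.14% higher and 6.71% lower). Prox1 did not reach an FPKM of 1 in 3 libraries and was tested only with the filter of at least 10 counts in 3 libraries (18374 genes), under which 2, 5 and 5 of the 10 genes were called where 14.2%, 19.3% and 14.5% of all genes were. The 3 comparisons share libraries, so their calls are not independent of each other.

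**Figure D1:**
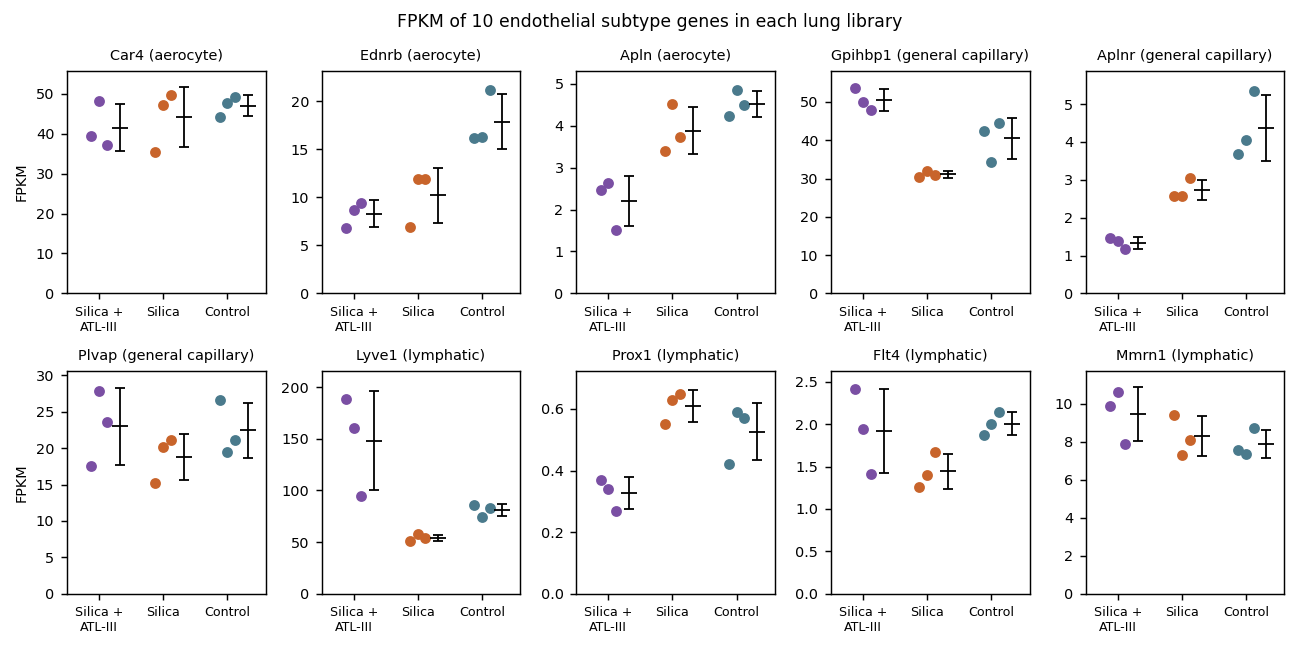
FPKM of each of the 10 genes (vertical axes, each from 0) in the 3 libraries of every group (points, libraries 1 to 3 from left to right), with the group mean and SD beside them. Silica + ATL-III libraries sit above all Silica and Control libraries for Gpihbp1 and Lyve1 and below all of them for Apln, Aplnr and Prox1, while Car4 and Plvap overlap between all groups.

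The aerocyte genes did not move together. Car4 (chromosome 11) encodes a membrane-anchored carbonic anhydrase that speeds the conversion of bicarbonate and carbon dioxide at the capillary surface. It stood at 39.41, 48.21 and 37.05 FPKM in Silica + ATL-III, 35.49, 47.28 and 49.80 FPKM in Silica, and 44.10, 47.67 and 49.16 FPKM in Control libraries. The 3 groups overlapped, and the log2 fold changes were 0.01 ± 0.13 for Silica against Control (SE, edgeR adjusted p = 0.976), -0.07 ± 0.13 for Silica + ATL-III against Silica (adjusted p = 0.763) and -0.06 ± 0.13 for Silica + ATL-III against Control (adjusted p = 0.808).

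Ednrb (chromosome 14), the endothelin receptor type B that clears endothelin from the blood and acts on vessel tone, was the aerocyte gene that silica lowered. Ednrb had 6.78, 8.72 and 9.45 FPKM in Silica + ATL-III, 6.91, 11.91 and 11.88 FPKM in Silica, and 16.19, 16.32 and 21.18 FPKM in Control libraries. Every silica-exposed library, with or without atractylenolide III, lay below every Control library, while Silica + ATL-III and Silica overlapped. The mean was 10.2 ± 2.88 FPKM in Silica and 17.9 ± 2.84 FPKM in Control (SD, n = 3 each). The edgeR fold was 1.64 lower in Silica (log2 fold change -0.71 ± 0.19, edgeR adjusted p = 0.029). That call was lost without Control library 1 (adjusted p = 0.0545), Control library 2 (0.0533), Control library 3 (0.115) or Silica library 1 (0.0965). Against Control, Ednrb fell 1.98-fold in Silica + ATL-III (-0.98 ± 0.19, edgeR adjusted p = 0.00506), a call kept whichever of the 6 libraries was left out. Against Silica alone the difference was -0.27 ± 0.19 (adjusted p = 0.346).

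Apln (chromosome X) encodes apelin, the secreted peptide ligand of Aplnr, and was lowest in Silica + ATL-III. Apln had 2.46, 2.64 and 1.52 FPKM in Silica + ATL-III, 3.41, 4.51 and 3.73 FPKM in Silica, and 4.23, 4.85 and 4.49 FPKM in Control libraries. All Silica + ATL-III libraries lay below all others, and Silica and Control overlapped. Apln averaged 2.21 ± 0.601 FPKM in Silica + ATL-III and 3.88 ± 0.566 FPKM in Silica (SD, n = 3 each), 1.74-fold lower (log2 fold change -0.80 ± 0.19, edgeR adjusted p = 0.0135). Against Control it fell 1.89-fold in Silica + ATL-III (-0.92 ± 0.19, edgeR adjusted p = 0.00716), and both calls were kept whichever of the 6 libraries was left out. For Silica against Control the difference was -0.12 ± 0.19 (adjusted p = 0.676).

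RefSeq's table of promoters (GRCm38.p6) matched 6 of the 10 genes, and the 250 bases before RefSeq's transcription start are shown for the 3 aerocyte genes, because these differ in how they moved. Capitals mark matches, on either strand, to the core letters of an ETS factor site (CCGGAA or CAGGAA) or a KLF site (CACCC). Sites for SOX (ACAAT) and GATA (GATAA) factors were searched too and matched in none of the 3. Each stretch runs 5′ to 3′ on the strand of its gene, at chr11:84957504-84957753 (plus strand), chr14:103843702-103843951 (minus strand) and chrX:48034854-48035103 (minus strand). None overlaps an exon annotated by GENCODE, and the Ednrb stretch lies in an intron of 1 longer Ednrb transcript. Bases shortly after the start lay in a GENCODE transcript of the gene for Ednrb and Apln but not for Car4. The Car4 start, and distances from it, thus rest on RefSeq alone.
Car4: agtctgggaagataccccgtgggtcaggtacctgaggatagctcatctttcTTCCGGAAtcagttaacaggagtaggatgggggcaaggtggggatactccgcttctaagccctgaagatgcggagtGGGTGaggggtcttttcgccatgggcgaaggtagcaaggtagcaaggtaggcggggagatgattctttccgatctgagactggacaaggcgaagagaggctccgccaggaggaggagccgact
Ednrb: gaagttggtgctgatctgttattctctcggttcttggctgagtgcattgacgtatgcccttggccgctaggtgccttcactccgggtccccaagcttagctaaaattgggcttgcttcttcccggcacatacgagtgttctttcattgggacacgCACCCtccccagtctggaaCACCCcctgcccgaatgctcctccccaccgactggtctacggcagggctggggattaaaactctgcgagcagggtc
Apln: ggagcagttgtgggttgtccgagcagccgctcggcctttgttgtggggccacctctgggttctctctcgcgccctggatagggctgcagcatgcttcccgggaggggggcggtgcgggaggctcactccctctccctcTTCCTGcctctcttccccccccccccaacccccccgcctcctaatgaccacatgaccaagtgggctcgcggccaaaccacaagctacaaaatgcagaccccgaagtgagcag

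The Car4 stretch holds 2 overlapping ETS matches on opposite strands, between 199 and 192 bases before the start, and 1 KLF match on the opposite strand. The Ednrb stretch holds 2 KLF matches and no ETS match, and the Apln stretch 1 ETS match, 112 to 107 bases before the start on the opposite strand, and no KLF match. Among 32851 promoter windows of the table, 35.1% held an ETS match, 52% a KLF match, 27.7% a SOX match and 22.6% a GATA match. These are matches of letters and were not tested as binding sites.

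Most other aerocyte genes that were tested were lower in Silica than in Control, and 2 were higher in Silica + ATL-III than in Silica. Against Control, 4 of 6 tested genes of this list were lower in Silica and 0 higher (median log2 fold change -0.55, where the median of all genes was -0.01), with 1 lower without any of Control libraries 1, 2 and 3 or Silica libraries 1 and 3. Chst1, a carbohydrate sulfotransferase, fell to 1.66 ± 0.318 FPKM in Silica, against 3.66 ± 0.217 FPKM in Control libraries (SD, n = 3 each, log2 fold change -1.05 ± 0.20, edgeR adjusted p = 0.00824), and kept its call in every such fit. The transcription factor Tbx2 fell too (-0.67 ± 0.19, adjusted p = 0.0332), but its call was lost without any of those 5 libraries, with adjusted p up to 0.0993.

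In Silica + ATL-III against Silica, 2 of the 6 aerocyte genes were higher and 0 lower, a count that no left-out library changed. Fibin, a secreted protein, had 26.1, 41.3 and 31.5 FPKM in Silica + ATL-III and 14.9, 20.7 and 17.1 FPKM in Silica libraries (0.93 ± 0.16, edgeR adjusted p = 0.00191). Prx, the scaffold protein periaxin, had 18.9, 28.8 and 14.8 FPKM in Silica + ATL-III and 9.18, 10.4 and 11.0 FPKM in Silica libraries (1.05 ± 0.19, edgeR adjusted p = 0.0029). In neither gene did the groups overlap, and both went the opposite way to Apln. Against Control, 2 genes of the list were lower in Silica + ATL-III and 0 higher (1 higher without Silica + ATL-III library 1 or 3). Kitl, the ligand of the receptor Kit that general capillary cells carry, was 1 of them (46.4 ± 5.82 FPKM in Silica + ATL-III, 75.6 ± 6.09 FPKM in Control, -0.58 ± 0.12, edgeR adjusted p = 0.00688).

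The general capillary genes moved in opposite directions. Gpihbp1 (chromosome 15) encodes the protein that carries lipoprotein lipase across capillary endothelium and holds it at the vessel surface. It had 53.70, 49.95 and 47.84 FPKM in Silica + ATL-III, 30.31, 32.02 and 30.83 FPKM in Silica, and 42.51, 34.33 and 44.51 FPKM in Control libraries. The groups did not overlap at all, with Silica + ATL-III highest and Silica lowest. Gpihbp1 averaged 50.5 ± 2.97 FPKM in Silica + ATL-III and 31.1 ± 0.877 FPKM in Silica (SD, n = 3 each), a 1.65-fold rise (log2 fold change 0.72 ± 0.11, edgeR adjusted p = 0.0012) kept whichever of the 6 libraries was left out. It was 1.36-fold higher in Silica + ATL-III than in Control (0.44 ± 0.11, edgeR adjusted p = 0.019). That call was lost without Control library 2 (adjusted p = 0.0758), without Silica + ATL-III library 1 (0.0573) and with scaling by library totals (0.06). With limma on log2(FPKM + 0.5) and on log2(FPKM + 0.1) it was lost too. For Silica against Control the difference was -0.28 ± 0.11 and missed the threshold (adjusted p = 0.0955). It passed without Control library 2 (0.0467), with library totals (0.0338) and with both forms of limma.

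Gpihbp1 is abundant in capillaries of heart and fat as well, so markers of those tissues are set beside it. Heart muscle genes (8 genes) summed to 60.3, 86.4 and 47.2 FPKM in Silica + ATL-III, 95.8, 65.6 and 71.5 FPKM in Silica, and 142, 161 and 133 FPKM in Control libraries. Adipocyte genes (7 genes) summed to 21.1, 30.0 and 18.3 FPKM in Silica + ATL-III, 25.4, 19.6 and 23.9 FPKM in Silica, and 53.9, 32.0 and 150 FPKM in Control libraries. In Silica + ATL-III against Silica, 1 of 8 heart muscle genes was higher and 0 lower (0 to 2 lower when 1 library was left out). Of 5 tested adipocyte genes, 2 were higher and 0 lower there (0 to 2 higher when 1 library was left out). In Silica + ATL-III against Control, 0 were higher on either list, and 7 heart muscle and 2 adipocyte genes were lower. When 1 library was left out, 4 to 7 and 0 to 3 were lower. In Silica against Control, 0 were higher on either list. There 6 heart muscle genes (median log2 fold change -0.79) and 5 adipocyte genes (median -1.56) were lower, 4 to 5 and 1 to 5 with 1 library left out. None of these genes was at 0 in all 9 libraries, and the part of either tissue in the Gpihbp1 result was not tested.

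Aplnr (chromosome 2), the G protein-coupled receptor of apelin, had the widest fall of the 10 genes. Aplnr had 1.46, 1.39 and 1.16 FPKM in Silica + ATL-III, 2.58, 2.56 and 3.04 FPKM in Silica, and 3.69, 4.06 and 5.34 FPKM in Control libraries. The groups formed 3 separate steps, lowest in Silica + ATL-III and highest in Control. Aplnr averaged 1.34 ± 0.157 FPKM in Silica + ATL-III, 2.73 ± 0.272 FPKM in Silica and 4.36 ± 0.866 FPKM in Control (SD, n = 3 each). It fell 2.01-fold in Silica + ATL-III against Silica (log2 fold change -1.01 ± 0.18, edgeR adjusted p = 0.0029) and 3.00-fold against Control (-1.59 ± 0.18, edgeR adjusted p = 0.000157), and no left-out library ended either call. Its fall in Silica against Control was 1.49-fold (-0.58 ± 0.17, edgeR adjusted p = 0.0394) and lost its call without any 1 of the 6 libraries: the adjusted p was 0.0506, 0.0721 and 0.172 without Control libraries 1, 2 and 3 and 0.127, 0.0693 and 0.0669 without Silica libraries 1, 2 and 3.

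Plvap (chromosome 8) forms the diaphragms of endothelial fenestrae and caveolae and, besides general capillary cells, is found in veins of the airway wall. Plvap had 17.49, 27.92 and 23.58 FPKM in Silica + ATL-III, 15.21, 20.14 and 21.07 FPKM in Silica, and 26.66, 19.51 and 21.15 FPKM in Control libraries. All groups overlapped, and none of the differences was called: -0.16 ± 0.18 for Silica against Control (edgeR adjusted p = 0.558), 0.31 ± 0.18 for Silica + ATL-III against Silica (0.233) and 0.15 ± 0.18 for Silica + ATL-III against Control (0.606). Plvap overlaps Gtpbp3 on the opposite strand, which had 283 to 410 counts, and with no strand stated for the counting the reads of the overlap cannot be told apart.

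**Figure D2:**
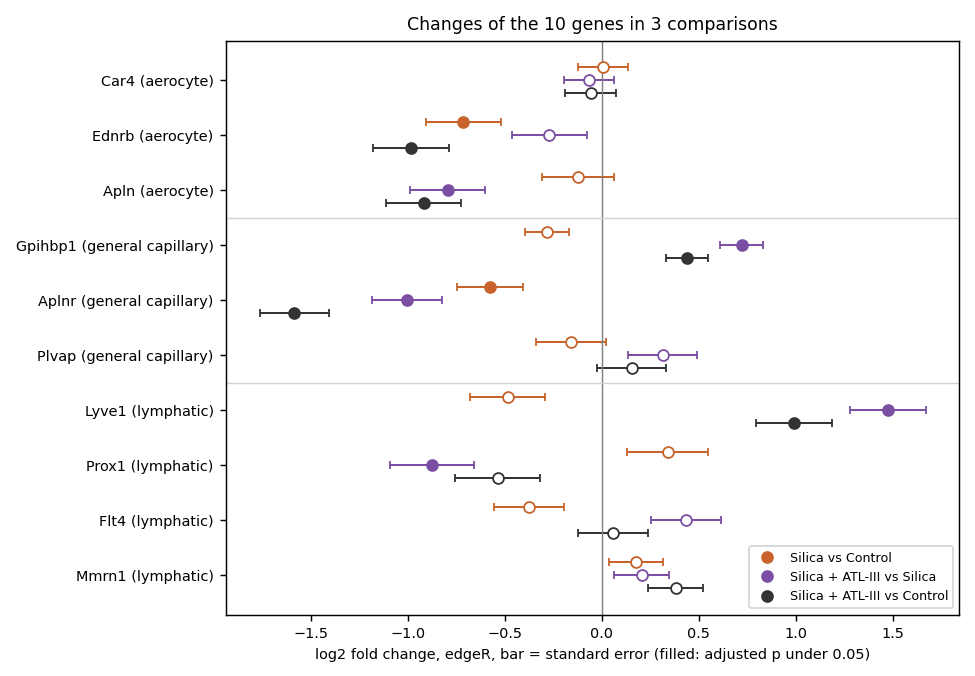
Log2 fold change of each gene in the 3 comparisons (edgeR, bars are standard errors, filled points have an adjusted p under 0.05; Prox1 from the fit with the filter on counts). Within general capillary genes Gpihbp1 lies right of 0 (0.72) and Aplnr left of it (-1.01) for Silica + ATL-III against Silica, and within lymphatic genes Lyve1 lies at 1.47 and Prox1 at -0.88.

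Among 6 other genes of general capillary cells, 1 was higher and 1 lower in Silica than in Control (median -0.37), 2 were higher and 2 lower in Silica + ATL-III than in Silica (median -0.08), and 0 were higher and 2 lower in Silica + ATL-III than in Control (median -0.42). Against Silica, 1 was lower in Silica + ATL-III without Silica library 2, Silica library 3 or Silica + ATL-III library 1. In Silica against Control the 2 calls became 0 without Control library 2, Control library 3, Silica library 1 or Silica library 3, 0 higher and 1 lower without Control library 1, and 1 higher and 3 lower without Silica library 2. Against Control, 1 was lower in Silica + ATL-III without any 1 of the libraries other than Silica + ATL-III library 3. Cxcl12, a chemokine that stromal and endothelial cells secrete, had 5.24, 4.22 and 3.86 FPKM in Silica + ATL-III, 17.2, 7.74 and 13.0 FPKM in Silica, and 6.91, 7.28 and 7.29 FPKM in Control libraries. It fell in Silica + ATL-III against Silica (-1.50 ± 0.24, edgeR adjusted p = 0.00155) whichever library was left out, while its rise in Silica against Control (0.93 ± 0.24, adjusted p = 0.0231) was kept only without Silica library 2 and otherwise reached an adjusted p of up to 0.0901. Sema3c, a secreted semaphorin, fell in Silica + ATL-III against Control (58.4 ± 6.84 and 120 ± 16.3 FPKM, SD, n = 3 each, -0.92 ± 0.15, edgeR adjusted p = 0.00133) in each of those fits too. The calls of Kit and Cd93, higher in Silica + ATL-III than in Silica by 0.56 ± 0.16 (edgeR adjusted p = 0.0309) and 0.62 ± 0.19 (adjusted p = 0.0397), were each lost without Silica library 1, Silica library 3 or Silica + ATL-III library 2, with adjusted p up to 0.0854 and 0.135, and that of Kit also without Silica + ATL-III library 3.

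The lymphatic genes also parted. Lyve1 (chromosome 7), a receptor for the matrix sugar hyaluronan on lymphatic endothelium, was the most abundant of the 10 genes in every group and the one that rose most. Lyve1 had 188.85, 160.29 and 95.02 FPKM in Silica + ATL-III, 51.07, 57.36 and 53.58 FPKM in Silica, and 86.00, 74.12 and 82.54 FPKM in Control libraries. All Silica + ATL-III libraries lay above all Control libraries, and these above all Silica libraries, although Silica + ATL-III library 3 was close to Control. Lyve1 averaged 148 ± 48.1 FPKM in Silica + ATL-III and 54.0 ± 3.17 FPKM in Silica (SD, n = 3 each), a 2.78-fold rise (log2 fold change 1.47 ± 0.20, edgeR adjusted p = 0.000567). The Control mean was 80.9 ± 6.11 FPKM, and edgeR gave a 1.99-fold rise in Silica + ATL-III over Control (0.99 ± 0.19, edgeR adjusted p = 0.00503), and no left-out library ended either call. For Silica against Control the difference was -0.49 ± 0.19 and not called (adjusted p = 0.10), though it was called in the fit of only the 6 libraries compared (0.0128) and with no filter (0.00833).

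Lyve1 is also made by a subset of macrophages that sit along blood vessels in the lung interstitium, so the markers of such cells were measured in the same libraries. The list of 10 resident interstitial macrophage genes summed to 1940, 2301 and 2006 FPKM in Silica + ATL-III, 1398, 1431 and 1529 FPKM in Silica, and 2041, 1496 and 2073 FPKM in Control libraries, most of it Cbr2, which airway cells express as well. In Silica + ATL-III against Silica, 4 of 9 tested genes of the list were higher and 1 lower (median 0.19), and 1 to 4 were higher when 1 library was left out, 1 without Silica library 3 or Silica + ATL-III library 2 and 2 without Silica library 1. With all libraries the 4 higher genes were Cd163, Cbr2, Pf4 and Gas6. Pf4 encodes platelet factor 4, so it is not a marker of macrophages alone. Of 6 tested platelet and megakaryocyte genes, 4 were higher and 0 lower in the same comparison. The part of platelets in the Pf4 result was not tested. The 1 lower call, Mrc1, was kept only without Silica library 2.

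Cd163, the haemoglobin scavenger receptor of these macrophages, followed the same order of groups as Lyve1 only in part. Cd163 had 3.51, 4.35 and 2.96 FPKM in Silica + ATL-III, 1.04, 1.49 and 1.69 FPKM in Silica, and 3.00, 3.12 and 3.81 FPKM in Control libraries. It rose in Silica + ATL-III against Silica (1.38 ± 0.19, edgeR adjusted p = 0.000668), and its Silica + ATL-III and Control libraries overlapped. In Silica against Control, Cd163 fell (-1.14 ± 0.19, edgeR adjusted p = 0.00396). Mrc1, the mannose receptor, had 24.5, 25.3 and 22.0 FPKM in Silica + ATL-III, 33.2, 27.8 and 35.7 FPKM in Silica, and 18.9, 18.1 and 18.6 FPKM in Control libraries, 3 groups without overlap. Mrc1 rose in Silica against Control (0.90 ± 0.12, edgeR adjusted p = 0.000921). In that comparison 4 of 9 tested genes of the list were higher and 1, Cd163, was lower (median -0.11). When 1 library was left out, 2 to 4 were higher. Against Control, where Lyve1 rose too, 4 of 9 genes of the list were higher in Silica + ATL-III and 0 lower (median 0.49), namely Mrc1, C1qa, C1qb and C1qc, with 1 higher without Control library 2 and 2 without Silica + ATL-III library 1. C1qa, a chain of complement C1q, was higher there by 0.94 ± 0.20 (edgeR adjusted p = 0.00894) whichever library was left out. Folr2 and Timd4, also on the list, were at or below 1.92 and 1.62 FPKM in every library. The part of macrophages in the Lyve1 result was not tested.

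Prox1 (chromosome 1), the transcription factor that sets lymphatic identity, was the least abundant of the 10 genes. Prox1 had 51, 48 and 37 read counts in Silica + ATL-III, 81, 89 and 97 counts in Silica, and 58, 79 and 78 counts in Control libraries, or 0.327 ± 0.0513, 0.610 ± 0.0529 and 0.527 ± 0.0929 FPKM (SD, n = 3 each). All Silica + ATL-III libraries lay below all others, while Silica and Control overlapped. With the filter on counts Prox1 fell 1.83-fold in Silica + ATL-III against Silica (-0.88 ± 0.22, edgeR adjusted p = 0.0157), a call lost without Silica library 3 (0.0574). The differences were -0.54 ± 0.22 for Silica + ATL-III against Control (adjusted p = 0.128) and 0.34 ± 0.21 for Silica against Control (adjusted p = 0.292). Its antisense neighbours Gm28172 and Prox1os had 0 to 1 counts in every library.

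Flt4 (chromosome 11), the receptor of the lymphatic growth factors Vegfc and Vegfd, had 2.41, 1.94 and 1.41 FPKM in Silica + ATL-III, 1.26, 1.4 and 1.67 FPKM in Silica, and 1.87, 2.00 and 2.14 FPKM in Control libraries. Silica libraries lay below all Control libraries, and Silica + ATL-III overlapped both groups. No difference was called: -0.38 ± 0.18 for Silica against Control (edgeR adjusted p = 0.165), 0.43 ± 0.18 for Silica + ATL-III against Silica (0.109) and 0.06 ± 0.18 for Silica + ATL-III against Control (0.861). Without Silica + ATL-III library 3 the second of these passed (0.61, adjusted p = 0.0198).

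Mmrn1 (chromosome 6), the large secreted protein multimerin 1 of lymphatic endothelium and platelets, had 9.91, 10.60 and 7.86 FPKM in Silica + ATL-III, 9.42, 7.33 and 8.11 FPKM in Silica, and 7.56, 7.38 and 8.71 FPKM in Control libraries. The groups overlapped, and the differences were 0.18 ± 0.14 for Silica against Control (edgeR adjusted p = 0.403), 0.20 ± 0.14 for Silica + ATL-III against Silica (0.324) and 0.38 ± 0.14 for Silica + ATL-III against Control (0.092). The last of these passed without Silica + ATL-III library 3 (adjusted p = 0.031) and with no filter (0.0385). Summed FPKM of 7 platelet and megakaryocyte genes was 208, 206 and 116 in Silica + ATL-III, 26.2, 102 and 30.9 in Silica, and 36.8, 57.3 and 113 in Control libraries. Of 6 tested, 4 were higher and 0 lower in Silica + ATL-III than in Silica (median 1.70). Against Control, 5 were higher and 0 lower in Silica + ATL-III (median 1.54). When 1 library was left out, 2 to 5 and 2 to 6 were higher. In Silica against Control 0 were called. No gene of the platelet list was at 0 in all 9 libraries, and the part of platelets in the Mmrn1 values was not tested.

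In neither comparison in which Lyve1 rose was another tested lymphatic gene called higher. Of 7 such genes, 0 were higher and 3 lower in Silica + ATL-III than in Silica (median log2 fold change -0.38), 1 lower without Silica library 3 or Silica + ATL-III library 3. Nrp2, a co-receptor of Flt4, had 2.57, 2.65 and 2.36 FPKM in Silica + ATL-III and 5.70, 3.51 and 5.03 FPKM in Silica libraries and fell by 0.90 on the log2 scale (SE 0.17, edgeR adjusted p = 0.00349) whichever library was left out. Ccl21a, the chemokine with which lymphatics draw dendritic and T cells, averaged 47.5 ± 5.94 FPKM in Silica + ATL-III, 68.8 ± 10.9 FPKM in Silica and 81.8 ± 11.2 FPKM in Control (SD, n = 3 each). Its fall against Control (-0.67 ± 0.14, edgeR adjusted p = 0.00698) was kept in every such fit, and that against Silica (-0.51 ± 0.14, adjusted p = 0.0227) was lost without Silica library 3 or Silica + ATL-III library 3 (adjusted p up to 0.0912). Against Control, 0 genes were higher and 2 lower in Silica + ATL-III (median -0.26), 1 lower without Control library 3, Silica + ATL-III library 2 or Silica + ATL-III library 3.

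In Silica against Control, 2 of the 7 were higher and 0 lower (median 0.08). Podoplanin (Pdpn), a membrane glycoprotein that alveolar type 1 cells express as well, rose to 114 ± 23.8 FPKM in Silica, against 72.8 ± 9.05 FPKM in Control libraries (0.75 ± 0.16, edgeR adjusted p = 0.0126), a call lost without Control library 2 (0.0508). Nrp2 was the other (0.63 ± 0.17, adjusted p = 0.0256), and its call was lost without any of 5 libraries (all but Silica library 2), with adjusted p up to 0.0961. Reln, Foxc2 and Cldn11 were below the filter and not tested.

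Ligands, enzymes and co-receptors of the same pathways mostly passed no test. Of 4 tested apelin and endothelin partners, edgeR, DESeq2 and limma called 0 in Silica against Control, and 0 had an unadjusted edgeR p under 0.05. Edn3 was lower in Silica + ATL-III than in Silica (-0.58 ± 0.19, edgeR adjusted p = 0.0449) and Ednra, the type A endothelin receptor of smooth muscle, was lower in Silica + ATL-III than in Control (-0.66 ± 0.16, edgeR adjusted p = 0.0176). The Edn3 call was lost without Silica library 1, Silica library 3, Silica + ATL-III library 1 or Silica + ATL-III library 3 (adjusted p up to 0.151), and the Ednra call without Control library 2 or Silica + ATL-III library 3 (up to 0.0768). Endothelin 1 (Edn1), the main ligand of Ednrb in vessels, had 6.54 to 8.46 FPKM in Silica + ATL-III, 9.07 to 9.82 FPKM in Silica and 7.23 to 13.9 FPKM in Control libraries, with no call. Apela, the other ligand of Aplnr, was at or below 0.30 FPKM in every library and not tested.

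Of 7 tested VEGF ligands and co-receptors, edgeR and DESeq2 called 0 in Silica against Control and limma 1, with 2 at an unadjusted edgeR p under 0.05; 1 was lower in Silica + ATL-III than in Silica and 2 were lower in Silica + ATL-III than in Control. Vegfd, a ligand of Flt4, fell to 9.48 ± 0.616 FPKM in Silica + ATL-III, against 15.9 ± 2.36 FPKM in Control libraries (-0.62 ± 0.13, edgeR adjusted p = 0.00601). Nrp1 fell against Control (-0.81 ± 0.14, edgeR adjusted p = 0.0018), and its fall against Silica (-0.55 ± 0.14, adjusted p = 0.0137) was lost without Silica library 3 or Silica + ATL-III library 1 (up to 0.0576). The other Flt4 ligand, Vegfc, stood at 4.01 to 6.37 FPKM in Silica + ATL-III, 4.96 to 6.05 FPKM in Silica and 6.02 to 6.40 FPKM in Control libraries, with no call.

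Lipoprotein lipase (Lpl), the enzyme that Gpihbp1 binds, fell where Gpihbp1 rose, in Silica + ATL-III against Silica. Lpl had 55.4, 51.7 and 53.7 FPKM in Silica + ATL-III, 163, 73.0 and 117 FPKM in Silica, and 38.9, 35.8 and 39.6 FPKM in Control libraries. It fell in Silica + ATL-III against Silica (-1.13 ± 0.24, edgeR adjusted p = 0.00649) and rose in Silica against Control (1.74 ± 0.24, edgeR adjusted p = 0.00133). Between Silica + ATL-III and Control the Lpl difference was 0.61 ± 0.23 (adjusted p = 0.101), of the same sign as that of Gpihbp1. Angptl4, an inhibitor of the enzyme, rose in Silica + ATL-III against Silica (18.7 ± 7.34 and 7.99 ± 2.09 FPKM, SD, n = 3 each, 1.24 ± 0.28, edgeR adjusted p = 0.00897). All 3 calls were kept whichever library was left out. Of the 4 tested genes of this list, 1 was higher and 1 lower in Silica + ATL-III than in Silica, 1 higher and 0 lower in Silica than in Control, and 0 in Silica + ATL-III against Control, where edgeR gave adjusted p from 0.101 to 0.688, 2 genes had an unadjusted p under 0.05, DESeq2 called 1 and limma 0, and 1 passed without Silica + ATL-III library 3. Macrophages express Lpl too. Summed FPKM of 8 macrophage genes, most of it Chil3, was 1287 to 2297 in Silica + ATL-III, 1175 to 1886 in Silica and 542 to 692 in Control libraries. By gene, 0 were higher and 2 lower in Silica + ATL-III than in Silica (median log2 fold change -0.42). When 1 library was left out, 1 to 3 were lower. Against Control, 5 were higher and 0 lower in Silica (median 1.13), and 4 higher and 0 lower in Silica + ATL-III (median 0.49). The part of macrophages in the Lpl values was not tested.

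Hyaluronan, which Lyve1 binds, is cut by hyaluronidases. Hyal2 had 13.3, 14.8 and 12.3 FPKM in Silica + ATL-III, 8.95, 8.69 and 8.06 FPKM in Silica, and 10.04, 11.3 and 10.9 FPKM in Control libraries. It rose in Silica + ATL-III against Silica (0.68 ± 0.11, edgeR adjusted p = 0.00138), the only called gene of 5 tested on the hyaluronan list in that comparison with all libraries; 2 were higher without Silica library 2 or 3, and 3 without Silica + ATL-III library 3. Cd44, another hyaluronan receptor, which leukocytes carry, rose in Silica against Control (54.9 ± 8.99 and 31.3 ± 4.74 FPKM, SD, n = 3 each, 0.92 ± 0.15, edgeR adjusted p = 0.00386), where Lyve1 was not called. In that comparison 1 gene of the list was higher and 1 lower, the lower one being Stab1 (-0.55 ± 0.13, edgeR adjusted p = 0.0183), whose call was lost without Control library 2, Control library 3 or Silica library 1 (adjusted p up to 0.0744). In Silica + ATL-III against Control 2 were higher and 0 lower, 0 without Control library 1 and 1 without Control library 3 or Silica + ATL-III library 2.

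Some genes of a list of general endothelial markers were lower in Silica than in Control, so the 10 genes were also set against that list. Whether lymphatic endothelium makes each of the listed genes was not tested. Of 24 pan-endothelial genes, 0 were higher and 7 lower in Silica than in Control (median log2 fold change -0.38), with 2 lower without Control library 3 or Silica library 1 and 3 without Silica library 3. In Silica + ATL-III against Silica, 8 were higher and 1 lower (median 0.20), with 6 to 10 higher when 1 library was left out. In Silica + ATL-III against Control, 1 was higher and 5 lower (median -0.16), with 0 lower without Control library 3 or Silica + ATL-III library 1, 1 without Control library 2, 2 without Control library 1, and 4 higher without Silica + ATL-III library 3. Ramp2, the partner of the adrenomedullin receptor, had 30.0, 38.8 and 31.4 FPKM in Silica + ATL-III, 17.1, 19.5 and 19.2 FPKM in Silica, and 31.1, 33.0 and 31.7 FPKM in Control libraries. Ramp2 was lowest in Silica, with edgeR adjusted p = 0.00274 for Silica against Control and 0.000373 for Silica + ATL-III against Silica. Other genes of the list fell in Silica + ATL-III. Emcn was lower there than in Silica (-0.79 ± 0.18, edgeR adjusted p = 0.0104) and than in Control (-0.74 ± 0.18, adjusted p = 0.0164). Kdr was lower than in Control (-0.56 ± 0.14, edgeR adjusted p = 0.0187). Both calls against Control were lost without Control library 3 or Silica + ATL-III library 1.

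The mean log2 level of the 24 genes, log2(FPKM + 0.1), was 4.29, 4.61 and 4.37 in Silica + ATL-III, 3.94, 4.39 and 4.27 in Silica, and 4.68, 4.66 and 4.77 in Control libraries. Differences of each gene from that mean, within a library, are a description and were not tested. On this scale Lyve1 lay 2.73 above the endothelial mean in Silica + ATL-III, 1.55 in Silica and 1.63 in Control, and Gpihbp1 1.24, 0.76 and 0.63 above it. Both were higher in every Silica + ATL-III library than in any other library, and the Silica and Control libraries of both overlapped. Aplnr lay at -3.91 in Silica + ATL-III, -2.71 in Silica and -2.56 in Control, and Apln at -3.25, -2.22 and -2.50, both lower in every Silica + ATL-III library than in any other.

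Silica against Control looked different on that relative scale. The endothelial mean itself was lower in Silica (4.20 ± 0.234) than in Control (4.71 ± 0.0606, SD, n = 3 each). A lower mean raises the relative level of every gene set against it. Car4 lay 1.25 above the endothelial mean in Silica and 0.85 in Control, Prox1 lay at -4.70 in Silica and -5.39 in Control, and Mmrn1 at -1.14 and -1.71, in each case with every Silica library above every Control library. Apln was 0.28 higher relative to the endothelial genes in Silica than in Control, and Ednrb was 0.33 lower (-0.88 in Silica, -0.55 in Control), again with no overlap. Aplnr differed by -0.14 between Silica and Control and its libraries overlapped. The gap was narrow for Ednrb, from -0.69 in the highest Silica library to -0.65 in the lowest Control library. It was narrow for Apln too, from -2.36 in the highest Control library to -2.34 in the lowest Silica library. The share of all genes with such a separation was not counted.

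**Figure D3:**
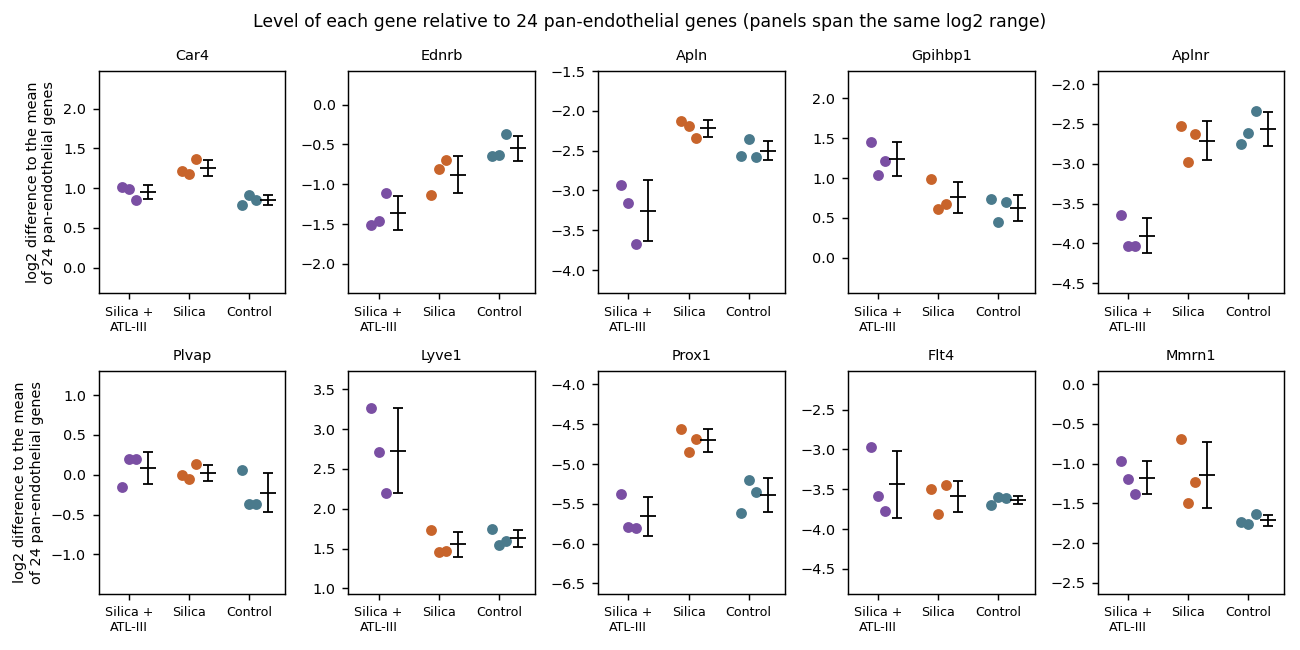
Log2 difference between each gene and the mean of 24 pan-endothelial genes in the same library (points, libraries 1 to 3 from left to right, with group mean and SD; panels span the same range on the log2 axis). Gpihbp1 and Lyve1 lie highest and Apln and Aplnr lowest in the Silica + ATL-III libraries.

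Ratios within a library, 6 in all, were computed between genes of the same or a partner set and were not tested. The ratio of Gpihbp1 to Aplnr FPKM was 36.8, 35.9 and 41.2 in Silica + ATL-III, 11.7, 12.5 and 10.1 in Silica, and 11.5, 8.46 and 8.34 in Control libraries. The ratio of Lyve1 to Flt4 FPKM was 78.4, 82.6 and 67.4 in Silica + ATL-III, 40.5, 41.0 and 32.1 in Silica, and 46.0, 37.1 and 38.6 in Control libraries. Both ratios were higher in every Silica + ATL-III library than in any other, and Silica and Control overlapped. The ratio of Ednrb to Car4 FPKM was 0.203 ± 0.0456 in Silica + ATL-III, 0.228 ± 0.0299 in Silica and 0.380 ± 0.0456 in Control (SD, n = 3 each), with every Control library above all others. The ratio of Lyve1 to Mmrn1 FPKM formed 3 steps without overlap, 19.1, 15.1 and 12.1 in Silica + ATL-III, 5.42, 7.83 and 6.61 in Silica, and 11.4, 10.04 and 9.48 in Control libraries. The ratio of Apln to Aplnr FPKM was 1.68, 1.9 and 1.31 in Silica + ATL-III, 1.32, 1.76 and 1.23 in Silica, and 1.15, 1.19 and 0.841 in Control libraries, lowest in Control and overlapping between the other groups. The ratio of Gpihbp1 to Plvap FPKM was 3.07, 1.79 and 2.03 in Silica + ATL-III, 1.99, 1.59 and 1.46 in Silica, and 1.59, 1.76 and 2.10 in Control libraries, and all groups overlapped.

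Genes of veins and arteries were measured in the same way. Slc6a2, the noradrenaline transporter of lung vein endothelium, had 25.0, 30.8 and 22.3 FPKM in Silica + ATL-III, 5.96, 11.2 and 7.96 FPKM in Silica, and 16.1, 15.5 and 15.1 FPKM in Control libraries, 3 groups without overlap. It rose in Silica + ATL-III against Silica (1.66 ± 0.18, edgeR adjusted p = 0.000205) whichever library was left out, and its fall in Silica against Control (-0.80 ± 0.18, adjusted p = 0.0147) was lost without Silica library 1 or 3 (up to 0.0569). Of 4 venous genes, 2 were higher and 0 lower in Silica + ATL-III than in Silica (median 0.46), 2 higher and 0 lower than in Control (median 0.31), and 0 higher and 1 lower in Silica than in Control (median -0.15). Vwf, the clotting protein von Willebrand factor, was the other gene called higher in Silica + ATL-III, and its calls were lost without Silica library 1 or Silica + ATL-III library 2 (against Silica, adjusted p up to 0.0736) and without Control library 2, Control library 3 or Silica + ATL-III library 2 (against Control, up to 0.141). Selp and Ackr1 are left out of these counts, because they reached an FPKM of 1 in Silica + ATL-III libraries alone, so that being higher there was a condition of being tested. Selp, the P-selectin that endothelium and platelets store for leukocyte rolling, had 1.54, 2.21 and 1.4 FPKM in Silica + ATL-III, 0.65, 0.58 and 0.60 FPKM in Silica, and 0.34, 0.40 and 0.32 FPKM in Control libraries. Ackr1, a chemokine-binding receptor of venules, had 2.23, 3.23 and 1.47 FPKM in Silica + ATL-III, 0.53, 0.30 and 0.56 FPKM in Silica, and 0.26, 0.13 and 0.70 FPKM in Control libraries.

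Of 7 arterial genes, 1 was higher and 2 lower in Silica + ATL-III than in Silica (median -0.23), 1 higher and 3 lower in Silica + ATL-III than in Control (median -0.45), and edgeR called 0 in Silica against Control, where the smallest adjusted p was 0.0576, 2 genes had an unadjusted p under 0.05, DESeq2 called 1 and limma 0. Bmx, a tyrosine kinase of arterial endothelium and myeloid cells, had 11.9, 12.7 and 13.5 FPKM in Silica + ATL-III, 4.24, 7.46 and 5.60 FPKM in Silica, and 7.60, 7.07 and 7.76 FPKM in Control libraries (1.17 ± 0.16 for Silica + ATL-III against Silica, edgeR adjusted p = 0.000604). Hey1, a Notch target, fell to 8.91 ± 2.00 FPKM in Silica + ATL-III, against 17.0 ± 0.658 FPKM in Control libraries (-0.81 ± 0.14, edgeR adjusted p = 0.00264). The 2 lower calls against Silica, Hey1 and Gja5, fell to 0 without Silica library 3, Silica + ATL-III library 1 or Silica + ATL-III library 2, and to 1 without Silica library 1 or 2.

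**Figure D4:**
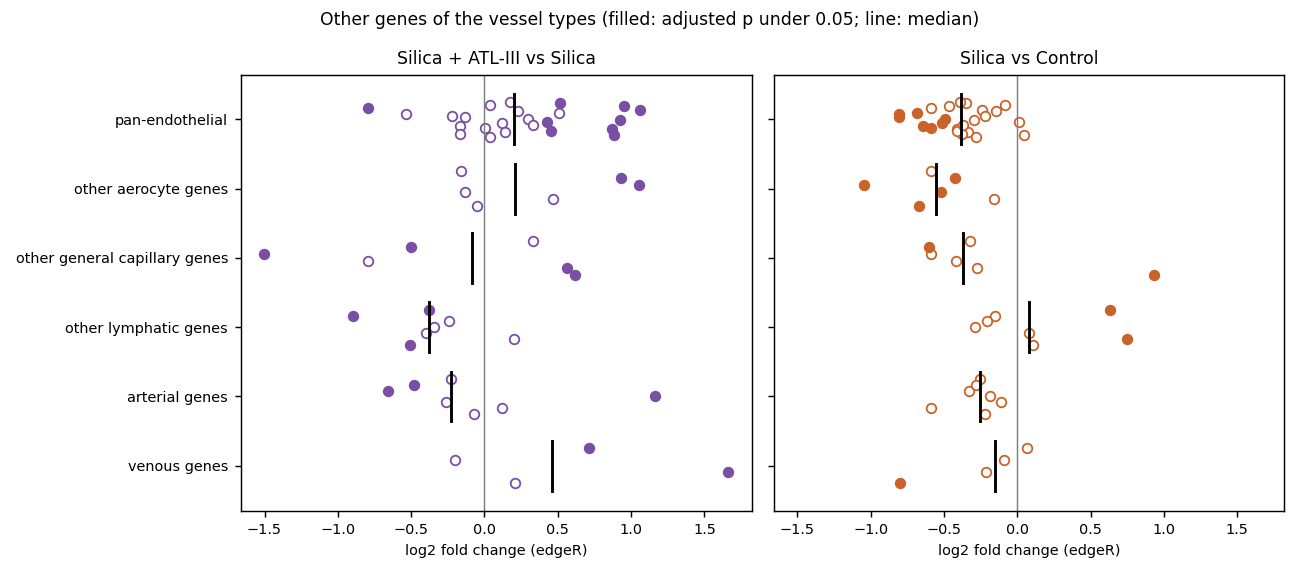
Log2 fold changes (edgeR) of other genes of each vessel type, 1 point per gene (filled where the adjusted p was under 0.05) with the median of each list as a line, for Silica + ATL-III against Silica (left) and Silica against Control (right). Selp and Ackr1 are not plotted. Other aerocyte genes have the lowest median in the right panel (-0.55).

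Levels per length kept a similar order in all groups. In Silica + ATL-III the mean FPKM ran from Lyve1 through Gpihbp1, Car4, Plvap, Mmrn1, Ednrb, Apln, Flt4 and Aplnr to Prox1, and the libraries of neighbours overlapped for Gpihbp1 and Car4, Mmrn1 and Ednrb, Apln and Flt4, and Flt4 and Aplnr. In Silica it ran from Lyve1 through Car4, Gpihbp1, Plvap, Ednrb, Mmrn1, Apln, Aplnr and Flt4 to Prox1, and only Ednrb and Mmrn1 overlapped. In Control it ran from Lyve1 through Car4, Gpihbp1, Plvap, Ednrb, Mmrn1, Apln, Aplnr and Flt4 to Prox1, with overlap of Car4 and Gpihbp1, Plvap and Ednrb, and Apln and Aplnr. Gpihbp1 changed places with Car4, Mmrn1 changed places with Ednrb, and Aplnr fell below Flt4, only in Silica + ATL-III.

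Likeness over the 9 libraries was measured as Pearson's r of log2 CPM, which also carries the difference between groups, and is given as a description. Among the genes themselves, Gpihbp1 and Lyve1 were most alike (r = 0.93), followed by Apln and Aplnr (0.87) and Ednrb and Aplnr (0.78), while the lowest values were those of Ednrb and Mmrn1 (-0.74) and Apln and Gpihbp1 (-0.73). Of all tested genes, Entpd1, an ectonucleotidase of endothelium and leukocytes, was most like Lyve1 (r = 0.98), followed by Mocs1 and Adam15. Snai2, a transcription factor of mesenchymal cells, was most like Apln (0.98), followed by Emid1 and Scn3b. Chml was most like Aplnr (0.98), followed by Col27a1 and Dennd6a, and Lrrn3 was most like Ednrb (0.98), followed by Gm50242 and Gm8229. Gm6136, Osgin1 and Selenbp1 were nearest to Gpihbp1 (highest 0.98), Gm12840, Trappc11 and Gm29427 to Flt4 (0.97), Gm12715, Mlec and Rac1 to Mmrn1 (0.97), Zscan12, Ctxn1 and Zmynd10 to Plvap (0.92), and Zfp438, Sipa1l3 and Tbc1d7 to Car4 (0.91).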

How the data were processed

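Poly(A) RNA of lung tissue was sequenced in 9 libraries. The deposited table holds whole-number read counts per gene, not normalized, and the authors' own FPKM. These FPKM follow from counts, exonic lengths and column totals for 100% of values, within 0.006. The submitters' processing notes list Cutadapt 1.9.1, HISAT2 2.0.1, HTSeq 0.6.1 and mm10, with no roles. Annotation release and strand setting are not given in the sources used here. Start positions in the table mostly do not match mm10 genes, so chromosomes alone are printed for genes.

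Counts were fitted with edgeR 4.0.16 (quasi-likelihood F test, TMM, R 4.3.3) in 1 model of 3 group means over all 9 libraries (6 residual degrees of freedom), for genes that reached an FPKM of 1 in 3 or more libraries. A standard error is the size of the log2 fold change over the root of F. Alternatives used library totals, DESeq2 1.42.0, limma 3.58.1 on log2(FPKM + 0.5) and log2(FPKM + 0.1), other filters, the 6 libraries compared, a replicate block and leaving out each library. Scripts were tested on simulated counts. Chi-square over its degrees of freedom between libraries of a group was 5.99 or more, above sampling noise. The labels give no batch.

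The 10 genes and 22 context lists (182 entries) were chosen with earlier results of these data known. All 10 genes are named, and from a list the called genes with the smallest p, at most 2 per direction and comparison; other genes were named after their values were seen. Gene sequences are RefSeq's.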

Additional observations from a re-analysis of the deposited data

How the results depend on the processing

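Among tests of single genes of the 10 under other filters, scalings, tools or library sets, 221 kept their direction and their side of the threshold, 6 gained a call, 4 lost one and 6 changed sign; with 1 library left out the numbers were 156, 3, 13 and 8. The sign changes were in genes that passed no test. Car4 in Silica against Control turned to -0.088 with library totals and -0.10 with limma at either pseudocount, and Flt4 in Silica + ATL-III against Control to -0.059 with library totals and -0.069 and -0.087 with limma (pseudocounts 0.5 and 0.1). With 1 library left out, the log2 fold change of Car4 ran from -0.082 to 0.14 in Silica against Control, from -0.18 to 0.025 in Silica + ATL-III against Silica and from -0.17 to 0.031 in Silica + ATL-III against Control, and in the last comparison that of Plvap from -0.0011 to 0.34 and that of Flt4 from -0.11 to 0.25. Calls among the tested genes ran from 0 to 1 (Silica against Control), 4 to 5 (Silica + ATL-III against Silica) and 4 to 6 (Silica + ATL-III against Control) when 1 library was left out. With the replicate number as a block, 1 was called in Silica against Control, since Aplnr missed the threshold (adjusted p = 0.0582), and no other call of the 10 genes changed. Same-numbered libraries did not deviate together in every pair (correlations 0.09, 0.12 and 0.09 for Silica and Control, -0.06, -0.01 and -0.13 for Silica + ATL-III and Silica, -0.06, -0.07 and -0.10 for Silica + ATL-III and Control), so the numbers were not taken as pairs, though each Silica library correlated best with the Control library of its number. Over all tested genes, leaving out 1 library gave 840 to 3930 calls (2615 with all) in Silica against Control, 1828 to 3857 (3279) in Silica + ATL-III against Silica and 1453 to 2243 (2451) in Silica + ATL-III against Control. With a pseudocount of 0.5, levels relative to the endothelial genes moved beyond the spread between libraries for Aplnr (-1.12 in Silica + ATL-III against Control) and Prox1 (-0.64 against Silica, -0.04 against Control). The causes were not tested. Prox1 had 37 to 97 counts per library.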

Other observations

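The cells that border the capillaries were measured in the same libraries. Of 6 genes of alveolar type 1 cells, the thin epithelium that faces aerocytes, 0 were higher and 2 lower in Silica + ATL-III than in Silica (median log2 fold change -0.27), 0 higher and 2 lower in Silica + ATL-III than in Control (median -0.45), and 0 higher and 1 lower in Silica than in Control (median -0.14), with 0 lower without Control library 2 or 3 or Silica library 1 or 3. Aqp5, a water channel, had 47.2, 47.0 and 51.9 FPKM in Silica + ATL-III, 98.6, 68.6 and 77.0 FPKM in Silica, and 70.5, 64.3 and 69.3 FPKM in Control libraries, and fell in Silica + ATL-III against Silica (-0.73 ± 0.14, edgeR adjusted p = 0.00463). Rtkn2 fell to 42.6 ± 8.45 FPKM in Silica + ATL-III, against 74.1 ± 4.36 FPKM in Control libraries (SD, n = 3 each, -0.68 ± 0.13, edgeR adjusted p = 0.00469). Both calls were kept whichever library was left out, and the counts in Silica + ATL-III against Silica fell to 1 without Silica library 1, 2 or 3 or Silica + ATL-III library 1.

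Pericytes, which wrap capillaries, and smooth muscle were covered by a list with 7 tested genes. In Silica + ATL-III 0 were higher and 4 lower than in Control (median -0.53), and 2 higher and 1 lower than in Silica (median 0.09). Pdgfrb, the platelet-derived growth factor receptor of pericytes, had 3.92, 3.62 and 3.22 FPKM in Silica + ATL-III, 6.33, 5.66 and 7.86 FPKM in Silica, and 7.06, 7.96 and 7.45 FPKM in Control libraries. It fell in Silica + ATL-III against Silica (-0.86 ± 0.14, edgeR adjusted p = 0.00136) and against Control (-0.94 ± 0.14, edgeR adjusted p = 0.000712), whichever library was left out, and was lower in 3 of 3 Silica + ATL-III libraries than in any other. The 2 higher calls against Silica, Cnn1 and Tagln, fell to 0 without Silica library 1 or Silica + ATL-III library 2 and to 1 without Silica library 3 or Silica + ATL-III library 1. In Silica 0 of the 7 genes were higher and 5 lower than in Control (median -0.52), with 3 lower without Control library 2 or Silica library 1.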
